A study of Mus musculus with 12 samples.

Results

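Ly6C+ monocytes of the fetal liver in which the transcription factor gene Zeb2 was low (KO, 3 libraries, E13.5) were compared with WT fetal liver monocytes (3 libraries, WT 1 at E13.5, WT 2 and WT 3 at E15.5). The 6 libraries were chosen by their labels from the 12 of the series, and no measured value was used. A second control, 3 fetal liver libraries called Mixed (genotype label WT, E15.5), was set against the same 3 KO libraries. All were bulk RNA-seq of sorted mouse monocytes, and Ly6C marks the classical kind. The other 3 libraries, bone marrow monocytes with the genotype label WT and no age, were not compared here. They entered the fit and so bore on its filter, its scaling and its estimate of the spread. The sources used here do not give the allele behind the KO label, the sense of Mixed, the strain, how many embryos made a library, or sort markers beyond Ly6C. Z165KO mice appear in the design text, which is about tissue-resident macrophages, and the title speaks of Zeb2 and cMaf in primitive blood formation. Since every KO library came from E13.5 and every Mixed library from E15.5 (days of gestation), genotype and day cannot be told apart in KO against Mixed, and in KO against WT the day is shared with WT 1 alone.

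Zeb2 and its relative Zeb1 are zinc finger proteins that bind paired E2-box motifs in DNA and mostly repress transcription. In epithelia they are known for silencing junction genes during the change to a mesenchymal form. In blood, Zeb2 is known for a role in monocyte and plasmacytoid dendritic cell fate, where it is set against Id2 and the programme of type 1 conventional dendritic cells. The fetal liver makes most blood cells of the embryo at these days, and its monocytes seed tissue macrophages.

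Levels below are counts scaled to a library total of 1000000 after TMM scaling (CPM), given library by library in the order of the replicate numbers. A gene is called higher or lower when edgeR's quasi-likelihood test gives a Benjamini-Hochberg adjusted p under 0.05 over the 14618 genes tested. A gene counts as changed against both controls when it was called with the same sign against WT and against Mixed. These comparisons share the KO libraries, so the second call is a check and not independent evidence. The labels do not say whether replicate libraries had different litters as their source, so the p-values reflect how far these libraries differ, and that may be technical. Zeb2 itself was at 23.8, 20.1 and 22.5 CPM in KO, 141, 143 and 165 in WT and 179, 159 and 164.5 in Mixed, and its KO libraries lay below all others. Maf, which encodes the cMaf protein of the series title, was at 12.7, 7.94 and 9.34 CPM in KO, 13.9, 12.1 and 14.9 in WT and 7.55, 10.6 and 9.38 in Mixed, its groups overlapped, and it was not called (adjusted p = 0.0549 against WT and 0.635 against Mixed). The result against WT depended on the processing, being called in 5 of 20 alternatives with adjusted p from edgeR down to 0.00884 (without KO 1).

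Against WT 5565 genes were called (38.1% of those tested), 2654 higher (18.2%) and 2911 lower (19.9%) in KO. Against Mixed 5365 were called (36.7%), 2654 higher (18.2%) and 2711 lower (18.5%). Changed against both controls were 4017 genes (27.5%), of which 2016 were higher (13.8%) and 2001 lower (13.7%). By 2-fold or more against each control 769 genes were higher (5.26%) and 384 lower (2.63%). In 4989 genes (34.1%) all 3 KO libraries lay outside the range of the 6 control libraries. The median log2 difference from WT over all genes was -0.03. Scaling by library size alone moved it to -0.13, and the share of higher genes among those changed against both controls went from 50.2% to 33.5%. Total counts ran from 17384956 to 24473502 over the libraries. WT 1, WT 2 and Mixed 2 shared high levels of a few genes (below). Without them fewer genes were called against WT and against both controls, in a fit that left 1 WT library (last section).

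Of the markers that define the labelled cell, all were detected, but they did not move as a block. Of 13 classical monocyte genes 4 were higher in KO against both controls, among them Itgam (CD11b), and 7 were lower. The lysozyme gene Lyz2 was at 4310, 4560 and 3950 CPM in KO, 5710, 5720 and 6850 in WT and 8010, 8190 and 8000 in Mixed. Ly6c2, a gene for Ly6C, was among the 4 higher ones, at 1540, 1680 and 1370 CPM in KO, 549, 538 and 490 in WT and 695, 698 and 704 in Mixed. The summed level of the list, of which Lyz2 was the largest member, was 7720 to 8750 CPM in KO, 11100 to 12400 in WT and 14500 to 14600 in Mixed. The sum therefore does not give the direction of the single markers. In bulk libraries fewer cells of a type and less RNA per cell cannot be told apart.

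Markers of other cells differed by type. Of 10 type 1 conventional dendritic cell genes 9 were higher in KO and 0 lower, with sums of 1100 to 1240 CPM in KO, 379 to 395 in WT and 424 to 456 in Mixed. Of 10 neutrophil genes 5 were higher and 2 lower (12300 to 15000, 10100 to 12500 and 8980 to 9190 CPM). For B cells 1 of 5 tested genes was higher and 1 lower, with sums of 130 to 144 CPM in KO, 79.8 to 87.5 in WT and 80.1 to 83.2 in Mixed. The higher one was Ms4a1, which encodes CD20, at 72.9, 80.3 and 72 CPM in KO and 0 to 0.223 in the controls, the lower one was Cd79b, and Dntt had 0 counts in every fetal library. In the list of T cells, natural killer cells and innate lymphoid cells 0 of 2 tested genes were called against both controls, its sum was 1.31 to 1.73 CPM in KO and 0.433 to 3.05 in the controls, and Cd3e was at 0 in every fetal library. Liver parenchyma genes were called against both controls in 0 of 7 cases, but 3 of the 7 were called higher against Mixed. Their sums were 17.9, 26.5 and 89.6 CPM in KO 1 to 3, 12.3, 9.2 and 72 in WT 1 to 3 and 7.59, 7.6 and 5.44 in Mixed 1 to 3. Of 6 tested eosinophil, mast cell and basophil genes 2 were higher, Il5ra (1.18 to 2.36 CPM in KO) and Mcpt8 (1.41 to 2.15). Their list had sums of 18.2 to 65.5 CPM in KO and 2.37 to 22.9 in the controls. Most of the KO sum was Prg2 (11.2, 24.3 and 46 CPM), which was not called against WT. Of 5 endothelial and stromal genes 1 was higher, Pecam1, and 1 lower, Acta2 (sums of 75.8 to 82.5 CPM in KO and 19.8 to 34.8 in the controls). Most of these sums was Pecam1, at 78.6, 73.8 and 79 CPM in KO, while Cdh5 was at 0.227, 0.42 and 0.718. Plasmacytoid dendritic cell genes had 2 of 7 higher and 1 lower, while 0 of 8 erythroid and 0 of 11 tissue macrophage genes were called against both controls. Of 6 tested stem and progenitor genes 2 were higher (Ly6a and Meis1) and 1 lower (Cd34). Their sum was 280 to 306 CPM in KO and 575 to 622 in WT, and most of it was Cd34, at 178, 165 and 180 CPM in KO and 524, 520 and 560 in WT. The part of other cells in the results was not tested.

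Across 41 gene lists of transcription factors, receptors, signalling proteins and metabolism, 369 of 1462 tested genes were higher against both controls (25.2%, against 13.8% of all genes) and 275 lower (18.8%, against 13.7%). The classes differed in their direction. Receptors and other surface proteins had 87 of 236 higher (36.9%) and 34 lower (14.4%), signalling genes 133 of 508 higher (26.2%) and 79 lower (15.6%), and transcription factors 40 of 216 higher (18.5%) and 32 lower (14.8%). Metabolic genes had the reverse balance, with 109 of 502 higher (21.7%) and 130 lower (25.9%). Genes that passed the filter on low counts through the KO libraries alone are favoured by that filter to be higher in KO, and these counts include them. Over all genes they were 434, of which 163 were higher against both controls. They were 14 of the receptor genes, 9 of these higher, and without them 78 of 222 receptors were higher (35.1%), 127 of 500 signalling genes (25.4%), 36 of 212 transcription factors (17%), 105 of 491 metabolic genes (21.4%) and 1853 of 14184 of all genes (13.1%). Each of the 41 lists held 0 to 4 such genes, of which 0 to 2 were higher. The counts of marker lists above and of single lists below are to be read beside 13.8% higher and 13.7% lower over all genes. The median log2 difference from WT was 0.29 for receptors, 0.1 for signalling genes, 0.03 for transcription factors and -0.05 for metabolic genes.

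**Figure D1:**
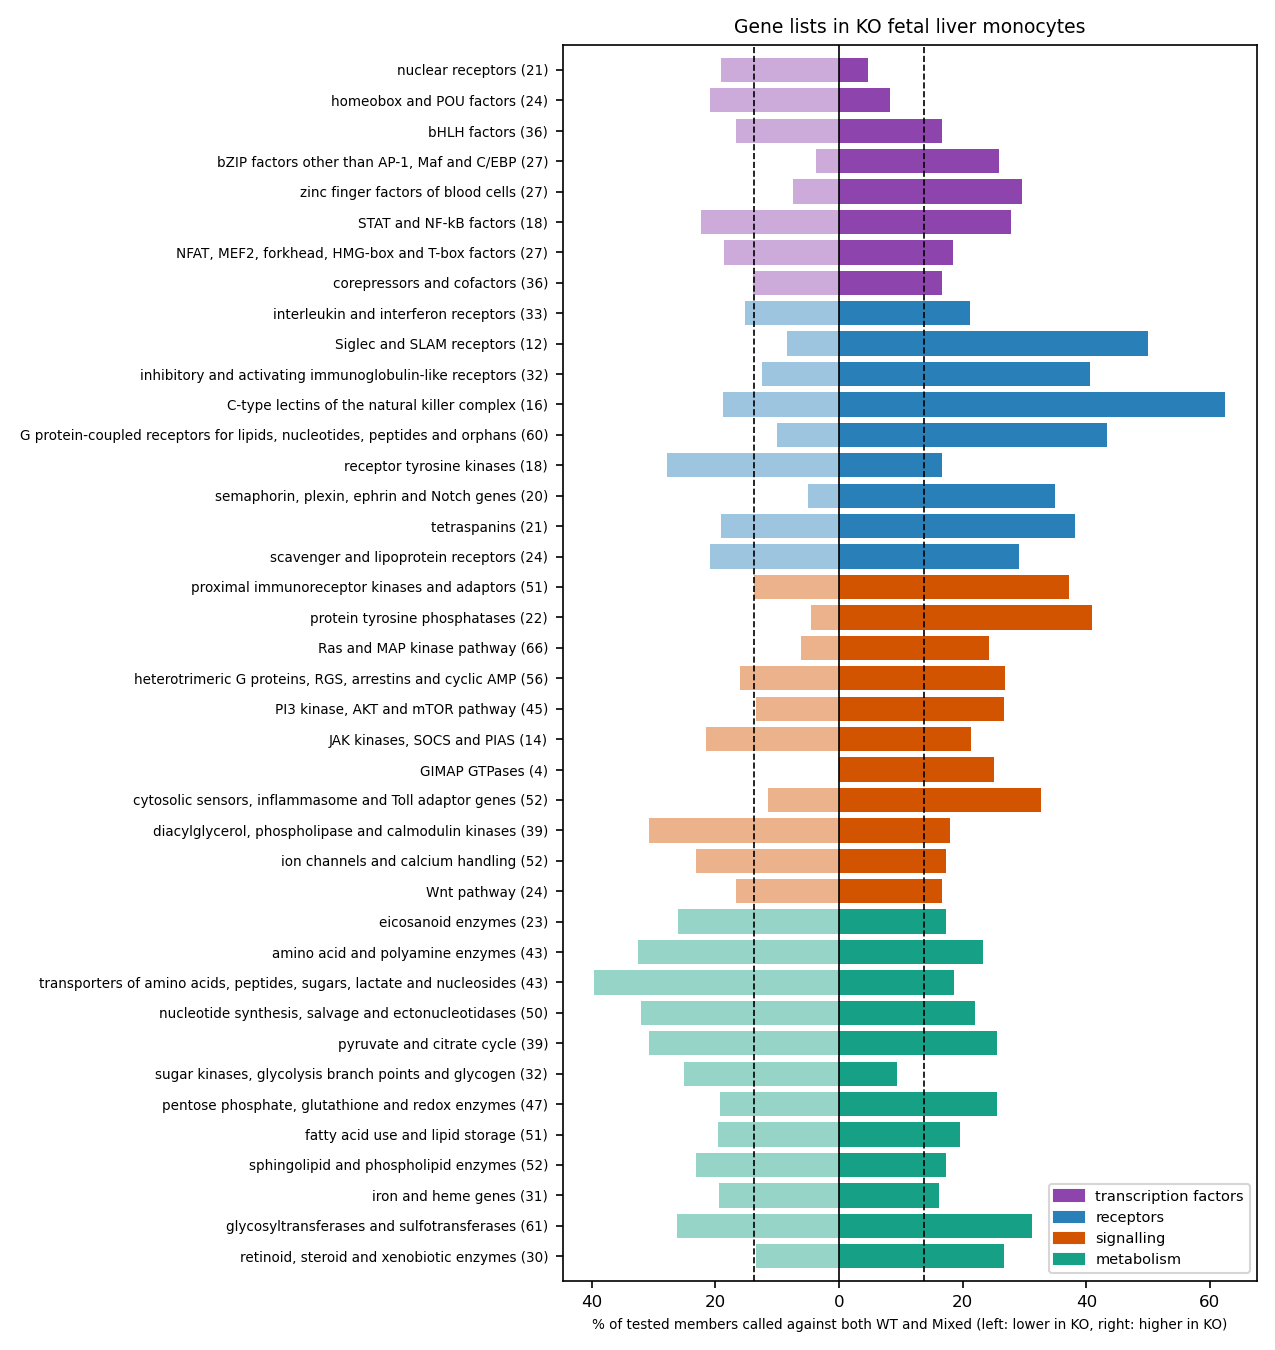
Percent of the tested members of each of 40 of the 41 gene lists that were called against both WT and Mixed, higher in KO to the right (full colour) and lower to the left (pale), with the number tested in brackets. Dashed lines mark the share over all genes, 13.8% higher and 13.7% lower. The lectins of the natural killer complex reach farthest to the right, and transporters of amino acids and sugars reach farthest to the left.

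Among transcription factors the changes were large in single genes and uneven within families. Batf3, a basic leucine zipper factor needed for type 1 conventional dendritic cells, was at 51.7, 62.6 and 56.8 CPM in KO, 3.74, 4.6 and 4.37 in WT and 4.53, 5.33 and 5.24 in Mixed. Its KO libraries lay far above the other 6, 13.4-fold higher than in WT and 11.3-fold higher than in Mixed (log2 3.74, SE 0.127, adjusted p = 9.27e-16 against WT). Batf3 is at chromosome 1, 191097847 to 191108945, plus strand (GRCm38, as all positions here). Of 27 basic leucine zipper factors tested, Batf3 among them (31 listed, leaving out AP-1, Maf and C/EBP members), 7 were higher and 1 lower. Atf6, a sensor of protein folding stress in the endoplasmic reticulum, was 1.6-fold higher than in WT, and Ddit3, a stress-induced factor also called CHOP, 1.83-fold.

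Of the 24 tested homeobox and POU genes (46 listed) 2 were higher and 5 lower against both controls. Meis1, which encodes a partner of Hox proteins, was 1.39-fold higher than in WT and 1.43-fold higher than in Mixed. Tgif1, a homeobox repressor of TGF-beta responses, was at 6.41, 4.26 and 4.86 CPM in KO, 10.9, 10.9 and 13.1 in WT and 12.7, 13.4 and 12.9 in Mixed, 2.24-fold lower than in WT and 2.5-fold lower than in Mixed.

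Zeb1, the only other member of the Zeb family, was high where Zeb2 was low. Its level was 31.6, 32.5 and 32.8 CPM in KO, 4.35, 3.66 and 3.85 in WT and 4.12, 3.78 and 2.36 in Mixed, 8.18-fold higher than in WT and 9.4-fold higher than in Mixed (log2 3.03, SE 0.154, adjusted p = 7.47e-13 against WT). The groups did not overlap. Zeb1 is on chromosome 18, from 5591860 to 5775467 on the plus strand.

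Zeb1 was 1 of 27 tested zinc finger factors of blood cells (34 listed), of which 8 were higher and 2 lower. Among the other 26, 7 were higher, and 17 were not called in the same direction against both controls. Zbtb46, a factor of conventional dendritic cells, was at 13.1, 10.8 and 10.3 CPM in KO, 1.4, 1.16 and 1.69 in WT and 1.33, 1.05 and 1.4 in Mixed. Zfp366, known as DC-SCRIPT from dendritic cells, was at 38.1, 35.9 and 39.6 CPM in KO, 7.36, 7.68 and 5.83 in WT and 8.37, 8.47 and 10.4 in Mixed. Bcl11a, a repressor of fetal globin genes that is also needed for lymphoid and plasmacytoid cells, was 2.33-fold higher than in WT and 2.44-fold higher than in Mixed. All 3 had KO libraries above every control library. Zbtb46, like Batf3 above and Cadm1 below, is also one of the 10 dendritic cell markers counted above. Csf1r and Ccl9, given below, are likewise among the 13 classical monocyte genes. These genes are not separate from those marker counts.

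Mxd1, which encodes a partner of Max that opposes Myc at E-boxes, was at 127, 108 and 97.8 CPM in KO, 14.7, 15.9 and 22.2 in WT and 13.9, 17 and 13.3 in Mixed. It was 6.28-fold higher than in WT and 7.52-fold higher than in Mixed (log2 2.65, SE 0.174, adjusted p = 1.31e-07 against WT), and the KO libraries, though spread, all lay above the controls. The 36 tested basic helix-loop-helix genes (39 listed) had 6 higher and 6 lower. On the lower side, Tfec, a MiT family factor known in macrophages, was at 38.5, 45.5 and 36.4 CPM in KO, 102.5, 98.7 and 98.9 in WT and 95.3, 96.4 and 102 in Mixed, and Id1, an inhibitor of E proteins, was 2.03-fold lower than in WT and 1.94-fold lower than in Mixed. Nfatc2, a calcium-dependent factor, was at 12.6, 9.25 and 10.9 CPM in KO, 2.9, 1.92 and 0.893 in WT and 1.19, 0.82 and 1.11 in Mixed, 5.8-fold higher than in WT and 10.5-fold higher than in Mixed. By TPM, which corrects for length, Nfatc2 made up 7.99% ± 1.46 of the summed Nfatc1, Nfatc2 and Nfatc3 level in KO and 2.13% ± 1.02 in WT (SD, n = 3), while Nfatc1 made up 82.5% and 83.1%.

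Stat2, part of the complex that carries type I interferon signals to the nucleus, was at 173, 156 and 149.9 CPM in KO, 51.3, 55 and 51.5 in WT and 61.1, 52.6 and 54.6 in Mixed. Its KO libraries lay above all 6 controls, 3.03-fold higher than in WT and 2.84-fold higher than in Mixed (log2 1.60, SE 0.0688, adjusted p = 4.49e-14 against WT). On the TPM scale Stat2 made up 15.3% ± 0.536 of the summed level of the STAT genes in KO, 7.27% ± 0.512 in WT and 7.41% ± 0.611 in Mixed. Stat6, the factor of interleukin 4 and 13 signals, made up 23.2% ± 1.52 in KO against 37.8% ± 1.12 in WT (SD, n = 3). The 18 tested STAT and NF-kB genes had 5 higher and 4 lower. Nfkbie, an inhibitor of NF-kB, was 2.19-fold higher than in WT and 2.09-fold higher than in Mixed.

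Of 21 tested nuclear receptors (28 listed) 1 was higher and 4 were lower, beside 13.8% higher and 13.7% lower over all genes. Pparg, the lipid-sensing receptor that is known from lung macrophages, was at 19.9, 19.1 and 19.9 CPM in KO, 38.5, 38.4 and 43.7 in WT and 35.9, 36 and 35 in Mixed. Rarg, a retinoic acid receptor, was 1.69-fold lower than in WT and 2.03-fold lower than in Mixed. Rara, another retinoic acid receptor, was the higher member (28.1, 28.5 and 28.4 CPM in KO against 16.5 to 20.5 in WT and 20.6 to 26.1 in Mixed). Its edgeR call against Mixed (adjusted p = 0.0292) did not hold without KO 1, KO 2, KO 3, Mixed 1 or Mixed 3. Of 36 tested corepressors and cofactors 6 were higher and 5 lower, led by Cbfa2t3 (ETO2, 1.81-fold over WT) and Tle3, a Groucho family corepressor (1.71-fold).

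**Figure D2:**
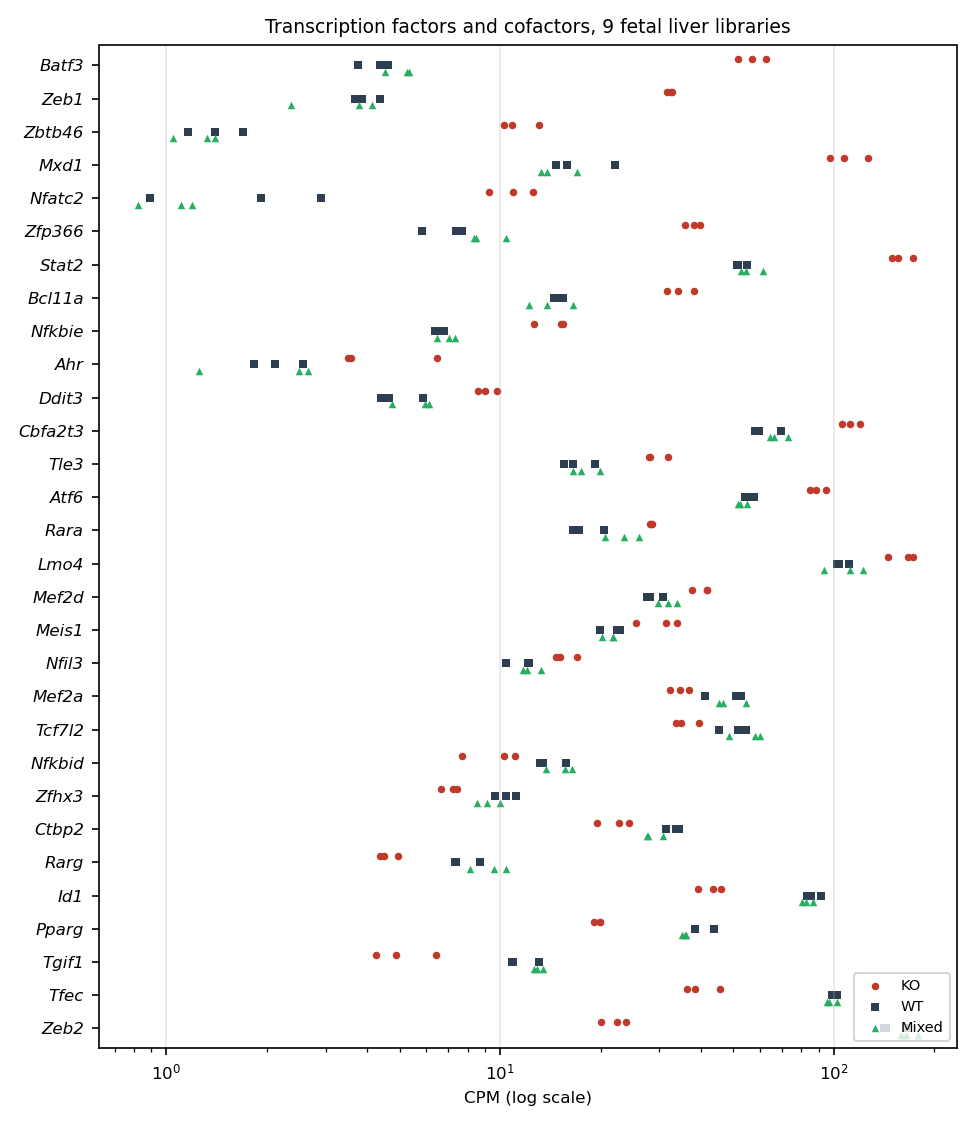
Levels of the named transcription factors and cofactors in the 9 fetal liver libraries, in CPM on a log scale, with 1 point per library (KO circles, WT squares, Mixed triangles) and genes ordered by the log2 difference of KO from WT. Batf3 and Zeb1 have KO points above 30 CPM and all control points below 7 CPM, and Zeb2 is at the foot of the plot.

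Of the 4 classes, receptors had the highest share of higher genes, also without those that passed the filter through KO alone. P2ry14, the receptor for UDP-glucose, was at 14.3, 13.51 and 16.3 CPM in KO, 2.46, 1.56 and 1.6 in WT and 0.915, 0.911 and 1.49 in Mixed. Its KO libraries lay above every control, 7.91-fold higher than in WT and 13.3-fold higher than in Mixed (log2 2.98, SE 0.208, adjusted p = 1.49e-10 against WT, chromosome 3, 59113855 to 59153618, minus strand). The complement C5a receptor gene C5ar2 was 3.47-fold higher than in WT and 3.05-fold higher than in Mixed, and Ptger4, a prostaglandin E2 receptor gene, 3.09-fold higher than in WT and 2.27-fold higher than in Mixed. Of 60 tested G protein-coupled receptors for lipids, nucleotides and peptides (70 listed) 26 were higher and 6 lower. Among them 4 had passed the filter on low counts only through the KO libraries, 2 of these being higher.

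Slamf7, a self-binding receptor of the SLAM family, was at 34.3, 34.4 and 33.4 CPM in KO, 0.614, 1.3 and 2.44 in WT and 0.366, 0.137 and 0.722 in Mixed. The KO libraries were nearly equal, whereas the controls were scattered at low levels, and the differences were 22.9-fold and 83.2-fold from WT and Mixed (log2 4.52, SE 0.295, adjusted p = 2.23e-08 against WT). Single control libraries weighed on their size: log2 was 5.10 against WT without WT 3, and it went from 6.38 to 7.05 against Mixed without Mixed 3. Ly9 and Slamf8, members of the same family on the same chromosome, also rose. Ly9 was at 89.5 to 95.5 CPM in KO and 44.4 to 59.6 in the 6 control libraries, and Slamf8, a member known from myeloid cells, at 3.85 to 5.36 CPM in KO and 1.28 to 1.83 in the 6 control libraries. Siglecg, an inhibitory lectin receptor best known from B cells, was 1.81-fold higher than in WT and 1.62-fold higher than in Mixed. In all, 6 of 12 tested Siglec and SLAM genes (15 listed) were higher and 1 lower.

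Of 32 tested immunoglobulin-like receptors (43 listed) 13 were higher and 4 lower. Jaml, a junctional adhesion protein of leukocytes, was at 84.3, 83 and 82.7 CPM in KO, 7.08, 7.19 and 7.75 in WT and 8.64, 8.47 and 7.89 in Mixed, with little spread in any group (log2 3.50, SE 0.087, adjusted p = 6e-18 against WT, chromosome 9, 45079183 to 45108534, plus strand). Cadm1, an adhesion protein of type 1 conventional dendritic cells, was at 21.9, 21.4 and 22.2 CPM in KO, 2.06, 2.46 and 2.63 in WT and 1.97, 3.23 and 1.92 in Mixed. Havcr2, which encodes the checkpoint receptor TIM-3, was 2.9-fold higher than in WT and 2.36-fold higher than in Mixed. Treml4, a receptor for dying cells, moved the other way (2.35-fold lower than in WT and 2.63-fold lower than in Mixed).

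C-type lectin genes of the natural killer gene complex were higher in 10 of 16 tested cases and lower in 3 (23 listed), 2 of the higher ones having passed the filter through KO libraries alone. Klrb1f, an activating receptor, was at 35.5, 29.8 and 33.4 CPM in KO, 10.5, 13 and 10.8 in WT and 9.83, 11.2 and 12.7 in Mixed, and Clec2i, of the family that holds the ligands of Klrb1 receptors, was 2.74-fold higher than in WT and 1.89-fold higher than in Mixed. Reads may be split among the close copies in this cluster, which makes each member's value uncertain. The defining natural killer gene Ncr1 had 0 counts in every KO and WT library.

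Interleukin and interferon receptors split, with 7 of 33 tested genes higher and 5 lower (39 listed). Il1r2, a decoy receptor that binds interleukin 1 without signalling, was at 90.4, 63.5 and 70.9 CPM in KO, 8.48, 9.61 and 12.3 in WT and 7.46, 5.19 and 4.57 in Mixed. The KO libraries were 7.37-fold higher than in WT and 13-fold higher than in Mixed. Il11ra1, the receptor for interleukin 11, was at 4.27, 3.78 and 4.1 CPM in KO, 12.9, 12 and 16.6 in WT and 13.1, 10.8 and 16.2 in Mixed, and Il1rl2, the interleukin 36 receptor, was 3.03-fold lower than in WT and 2.96-fold lower than in Mixed. Il3ra, the specific chain of the interleukin 3 receptor, was 1.95-fold lower than in WT and 1.88-fold lower than in Mixed.

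Csf1r, the receptor for the growth factor M-CSF on which monocytes and macrophages depend, was at 353, 354 and 394 CPM in KO, 771, 794 and 845 in WT and 904, 848 and 904 in Mixed. Its level in KO was below all controls, 2.19-fold lower than in WT and 2.41-fold lower than in Mixed (log2 -1.13, SE 0.0563, adjusted p = 5.29e-13 against WT). Receptor tyrosine kinases as a list had 3 of 18 tested genes higher and 5 lower (39 listed), and Met, the hepatocyte growth factor receptor gene, was on the higher side (1.59-fold and 1.69-fold). Msr1, the macrophage scavenger receptor, was at 7.59, 5.83 and 4.86 CPM in KO, 24.2, 24.8 and 25.2 in WT and 27.8, 23.3 and 27.5 in Mixed, and its groups did not overlap. Of 24 tested scavenger and lipoprotein receptors 7 were higher and 5 lower, with the glycan-binding galectin gene Lgals9 at 225 to 311 CPM in KO and 119.7 to 146 in the 6 control libraries.

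Guidance receptors and tetraspanins leaned to the higher side, with 7 of 20 semaphorin, plexin, ephrin and Notch genes higher and 1 lower (41 listed), and 8 of 21 tetraspanins higher and 4 lower (23 listed). Nrp1, a coreceptor for semaphorins and VEGF, was at 257, 299.6 and 289.5 CPM in KO, 107, 115 and 99.3 in WT and 126, 124 and 125 in Mixed. Sema4d, an immune semaphorin also called CD100, was 2.21-fold higher than in WT and 1.96-fold higher than in Mixed, and its receptor family member Plxnd1 2.18-fold higher than in WT and 1.56-fold higher than in Mixed. Tspan13 was at 86.2, 99.7 and 90.9 CPM in KO, 20.4, 21.1 and 19.2 in WT and 24.1, 25.6 and 23.2 in Mixed, and Cd37, a leukocyte tetraspanin, was 2.36-fold higher than in WT and 2.01-fold higher than in Mixed.

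Proximal signalling genes of immune receptors were more often higher than lower, 19 against 7 of 51 tested (56 listed). Grap2, an adaptor of T cell receptor signalling, was at 10.2, 12.5 and 10.1 CPM in KO, 2.46, 1.88 and 2.16 in WT and 2.42, 2.91 and 2.07 in Mixed. Its KO libraries lay above every control, 5.06-fold higher than in WT and 4.41-fold higher than in Mixed (log2 2.34, SE 0.206, adjusted p = 6.63e-09 against WT, chromosome 15, 80572594 to 80652854, plus strand). Pik3ap1 (BCAP), which recruits PI3 kinase, was at 198, 161 and 178 CPM in KO, 56, 54.8 and 62.5 in WT and 55.8, 48.3 and 50.2 in Mixed. Dok2, an adaptor that restrains Ras, fell (2.85-fold and 3.44-fold against WT and Mixed).

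Phosphatases showed a like balance, with 9 of 22 tested tyrosine phosphatase genes higher and 1 lower (28 listed). Ptprr, which acts on MAP kinases, was at 22.3, 17.3 and 22.4 CPM in KO, 1, 0.715 and 1.31 in WT and 0.229, 0.228 and 0.433 in Mixed, and Ptprcap, a small protein bound to CD45, was 3.25-fold higher than in WT and 3.58-fold higher than in Mixed. Dusp10, a phosphatase of p38 and JNK, was 3.14-fold higher than in WT and 3.27-fold higher than in Mixed. Mapk13, the p38 delta kinase, was at 53.7 to 59.6 CPM in KO and 18.1 to 24 in the 6 control libraries. The Ras and MAP kinase list of 66 tested genes (74 listed) had 16 higher and 4 lower.

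Regulators of the growth kinase mTOR moved in both directions. Castor2, a homologue of the arginine sensor of mTORC1, was at 46.1, 50.6 and 50.5 CPM in KO, 6.03, 8.18 and 7.7 in WT and 6.5, 8.74 and 7.7 in Mixed. Deptor, an inhibitor bound to mTOR, was at 3.46, 4.05 and 4.82 CPM in KO, 17.1, 17.7 and 16.1 in WT and 16, 17.7 and 18.9 in Mixed. Neither gene's groups overlapped, Castor2 being 6.68-fold higher than in WT and 6.42-fold higher than in Mixed and Deptor 4.12-fold lower than in WT and 4.25-fold lower than in Mixed. Sgk1, a kinase activated downstream of mTORC2, was 2.12-fold higher than in WT and 1.77-fold higher than in Mixed. Of 45 tested PI3 kinase, AKT and mTOR genes 12 were higher and 6 lower (47 listed).

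In the cytokine pathway Cish, a feedback inhibitor induced by STAT5, was at 12.7, 7.78 and 11.1 CPM in KO, 1.78, 1.47 and 2.21 in WT and 2.1, 1.5 and 1.35 in Mixed, and the kinase gene Jak2 was 2.29-fold higher than in WT and 2.37-fold higher than in Mixed. The list of 14 JAK, SOCS and PIAS genes had 3 higher and 3 lower. Of 52 genes for cytosolic sensors, inflammasomes and Toll adaptors 17 were higher and 6 lower. Zbp1, a sensor of Z-form nucleic acid, was at 96.4, 96.1 and 68.6 CPM in KO, 23.1, 25.5 and 19.1 in WT and 20.6, 22.7 and 21 in Mixed, while Irak3, an inhibitor of Toll signalling, was 2.37-fold lower than in WT and 2.8-fold lower than in Mixed. The RNA sensors Dhx58 (LGP2) and Ddx58 (RIG-I) were 2.97-fold and 2.27-fold higher than in WT. Zbp1, Dhx58 and Ddx58 are textbook targets of interferon.

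Exchange factors for small GTPases were among the signalling genes that fell. Dock1, an exchange factor for Rac in the uptake of dying cells, was at 6.78, 4.94 and 7.18 CPM in KO, 26.4, 25.4 and 25.6 in WT and 28.7, 28.9 and 30.6 in Mixed. Arhgef37, another exchange factor gene, was at 5.55, 9.04 and 7.18 CPM in KO, 37.2, 32.8 and 47.1 in WT and 51, 46.8 and 49.9 in Mixed, 5.41-fold lower than in WT and 6.83-fold lower than in Mixed. Of 39 diacylglycerol, phospholipase and calmodulin kinase genes 7 were higher and 12 lower, with Camk1, a calmodulin kinase, 3.4-fold lower than in WT and 3.82-fold lower than in Mixed, Pld3, an endolysosomal nuclease, 3.52-fold lower than in WT and 3.77-fold lower than in Mixed, and the protein kinase D gene Prkd2 3.26-fold higher than in WT and 3.65-fold higher than in Mixed.

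The makeup of the protein kinase C family differed between the groups. By TPM, Prkcb made up 26.9% ± 2.61 of the summed level of 7 protein kinase C genes in KO, 12.3% ± 1.33 in WT and 11.1% ± 0.569 in Mixed (SD, n = 3), and Prkcd 70.4% ± 2.99, 85.6% ± 1.26 and 87.3% ± 0.398. Wls, the carrier that brings Wnt proteins to the surface, was at 17.9, 17 and 17.4 CPM in KO, 57.4, 56.2 and 59.6 in WT and 65.8, 64.9 and 65.3 in Mixed and 3.31-fold lower than in WT and 3.74-fold lower than in Mixed, while the Wnt list as a whole had 4 of 24 tested genes higher and 4 lower. Among channels and pumps, with 9 of 52 higher and 12 lower, P2rx1, an ATP-gated channel, was at 12.8, 12.2 and 12.8 CPM in KO, 32.1, 33.3 and 44.5 in WT and 38.4, 38.3 and 37.8 in Mixed, 2.9-fold lower than in WT and 3.02-fold lower than in Mixed.

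**Figure D3:**
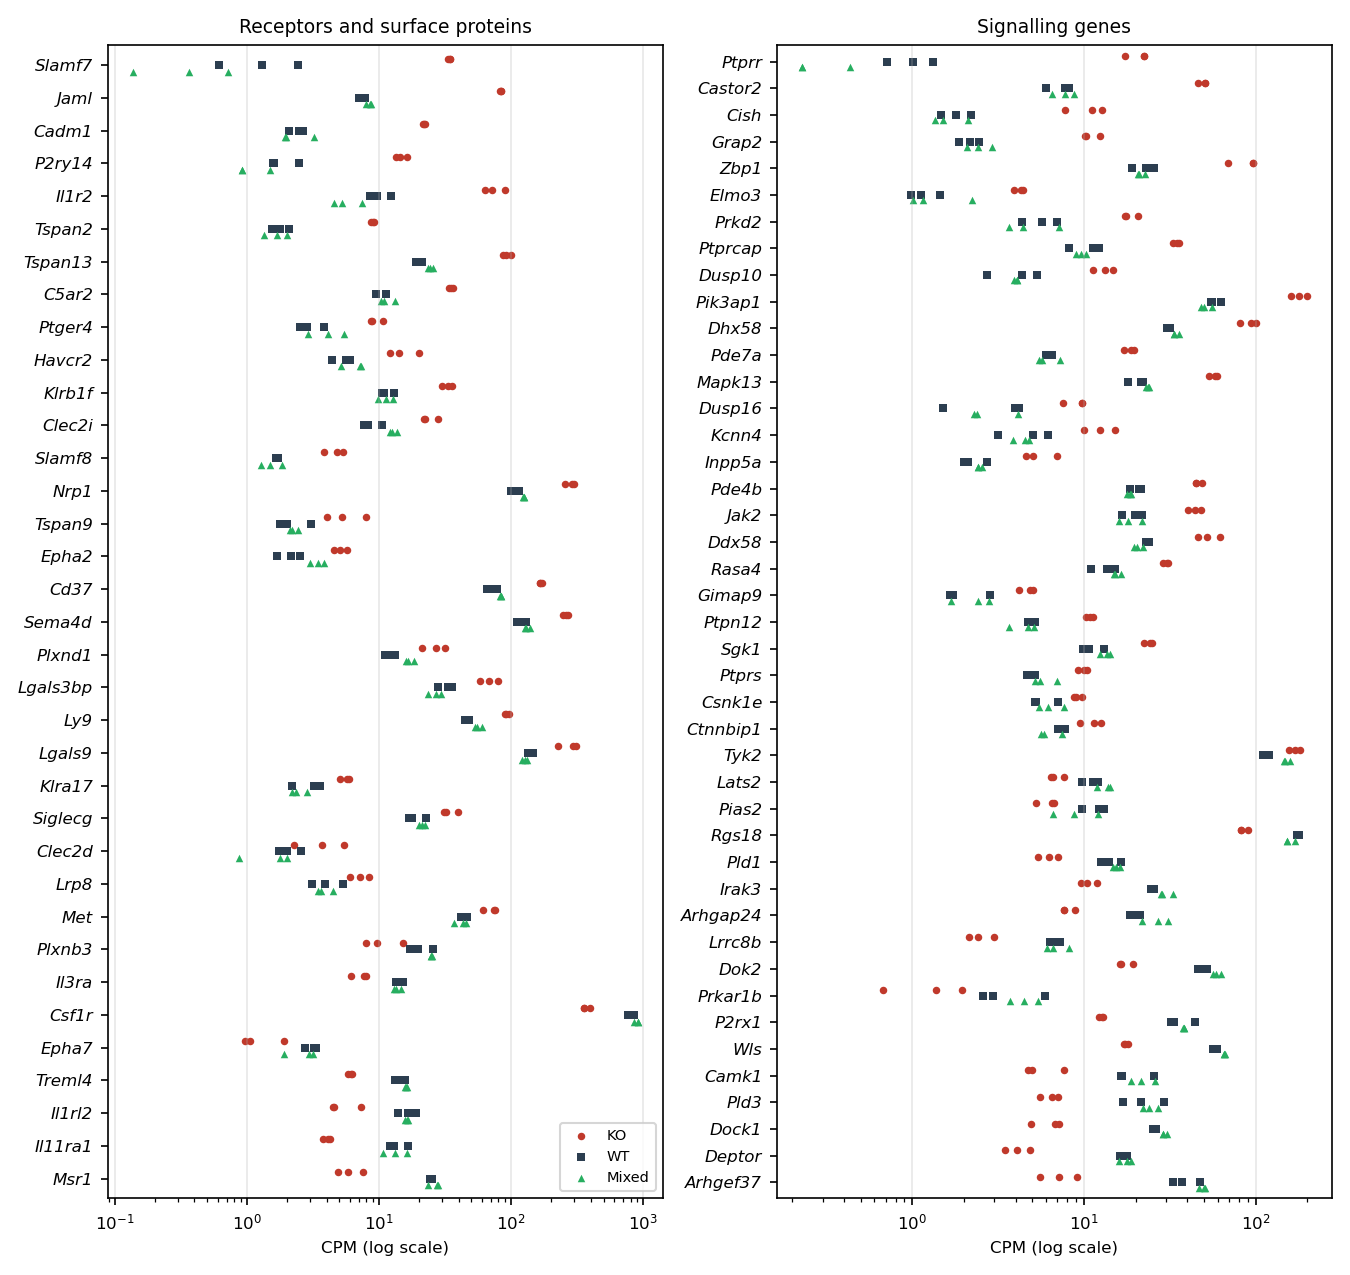
Levels of the named receptor genes (left) and signalling genes (right) in the 9 fetal liver libraries, in CPM on log scales, with 1 point per library (KO circles, WT squares, Mixed triangles) and genes ordered by the log2 difference of KO from WT. Slamf7 and Ptprr have every control point below 3 CPM and every KO point above 17 CPM.

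Metabolic genes were called often in both directions, and the lower side was larger. Transporters of amino acids, peptides, sugars, lactate and nucleosides had 17 of 43 tested genes lower and 8 higher (45 listed), with a median log2 difference of -0.23 from WT and -0.3 from Mixed. Slc36a4, an amino acid transporter, was at 0.909, 1.52 and 2.03 CPM in KO, 7.81, 6.03 and 6.86 in WT and 6.31, 6.37 and 6.5 in Mixed, and Slc16a7, a carrier of lactate and pyruvate, was 2.79-fold lower than in WT and 2.81-fold lower than in Mixed. On the other side, the lysosomal carrier gene Slc46a3 was at 124, 141 and 153 CPM in KO, 26.1, 25.7 and 25.9 in WT and 39.1, 39.7 and 32.6 in Mixed, and Slc2a3, a high-affinity glucose carrier, was 2.59-fold higher than in WT and 3.91-fold higher than in Mixed.

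Plbd1, a lysosomal phospholipase B-like protein known from granulocytes, had the largest rise of the metabolic genes named. It was at 335, 337 and 339.9 CPM in KO, 28.8, 27.2 and 32.5 in WT and 35.7, 40.4 and 36.7 in Mixed, 11.4-fold higher than in WT and 8.97-fold higher than in Mixed (log2 3.51, SE 0.068, adjusted p = 1.02e-19 against WT, chromosome 6, 136612070 to 136661928, minus strand). The list of 52 sphingolipid and phospholipid enzymes (56 listed) had 9 higher and 12 lower, among them Cers4, a ceramide synthase (3.3-fold and 4.15-fold lower), and Agpat5, an acyltransferase of phosphatidic acid synthesis (1.89-fold and 1.7-fold lower). In fatty acid use and lipid storage 10 of 51 tested genes were higher and 10 lower. Fabp5, a fatty acid carrier, was at 389.8, 419.6 and 414.5 CPM in KO, 128, 129.8 and 143 in WT and 119, 119 and 119 in Mixed, and Dgat2, the last enzyme of triglyceride synthesis, was 2.84-fold higher than in WT and 3.32-fold higher than in Mixed. Acadl and Acox3, enzymes of fatty acid oxidation, were 2.16-fold and 2.2-fold higher than in WT.

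Enzymes of creatine, tryptophan and proline metabolism changed by several fold. Gatm, the first enzyme of creatine synthesis, was at 81.3, 80.2 and 76.5 CPM in KO, 11.2, 12.4 and 10.2 in WT and 8.46, 7.83 and 8.95 in Mixed, and Ckb, a creatine kinase, was at 345, 332 and 348 CPM in KO, 74.7, 83.2 and 92.7 in WT and 90.1, 97.8 and 92.6 in Mixed. Kmo, which works on kynurenine in the breakdown of tryptophan, was 6.42-fold higher than in WT and 6.2-fold higher than in Mixed, and Prodh, the first enzyme of proline breakdown, was 3.27-fold lower than in WT and 2.42-fold lower than in Mixed. The amino acid and polyamine list had 10 of 43 tested genes higher and 14 lower (47 listed).

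Enzymes of leukotriene metabolism changed in both directions. Alox5, which starts leukotriene synthesis, was at 94.9, 83.3 and 92.2 CPM in KO, 25.8, 29.2 and 50.1 in WT and 34.6, 28.6 and 33.4 in Mixed. Dpep2, a membrane dipeptidase that acts on leukotriene D4, was at 0.909, 0.473 and 0.93 CPM in KO, 7.42, 7.06 and 10.2 in WT and 9.42, 9.88 and 10.8 in Mixed, so that the KO libraries held 10.4-fold less than WT (log2 -3.38, SE 0.203, adjusted p = 1.37e-11). Cyp4f16, of a cytochrome family that inactivates leukotriene B4, was 2.3-fold lower than in WT and 3.42-fold lower than in Mixed, and Pla2g7, which degrades platelet-activating factor, 2.24-fold higher than in WT and 2.19-fold higher than in Mixed. The list had 4 of 23 tested genes higher and 6 lower (29 listed).

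In nucleotide metabolism 11 of 50 tested genes were higher and 16 lower (55 listed). Cad, which carries the opening steps of pyrimidine synthesis, was at 29.2, 29.3 and 31.9 CPM in KO, 53.7, 59.7 and 51.6 in WT and 51.8, 53.6 and 47.4 in Mixed, and Slc19a1, the reduced folate carrier, was 2.79-fold lower than in WT and 2.19-fold lower than in Mixed. Entpd5, a nucleotidase of the endoplasmic reticulum, was 4.02-fold higher than in WT and 3.52-fold higher than in Mixed, and Cmpk2, a mitochondrial nucleotide kinase, 2.21-fold higher than in WT and 1.87-fold higher than in Mixed.

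Sugar enzymes had 8 of 32 tested genes lower and 3 higher, and pyruvate and citrate cycle enzymes 12 of 39 lower and 10 higher. Over all genes 13.7% were lower and 13.8% higher. The median log2 differences from WT were 0 and -0.05 for these lists and -0.03 over all genes. Idh1, the cytosolic isocitrate dehydrogenase, was at 125, 139 and 133 CPM in KO, 260.2, 258 and 256 in WT and 293, 302 and 289 in Mixed, and Idh3a, a subunit of the mitochondrial NAD-dependent enzyme, was 1.5-fold lower than in WT and 1.31-fold lower than in Mixed. Pdk3, a kinase that shuts off pyruvate dehydrogenase, was 1.87-fold higher than in WT and 2.02-fold higher than in Mixed. Pfkfb3 and Tigar, which make and break the glycolysis activator fructose 2,6-bisphosphate, went in opposite directions, Pfkfb3 being 1.58-fold higher and Tigar 1.87-fold lower than in WT.

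The makeup of enzyme families also differed. On the TPM scale Hk3 made up 16.8% ± 2.87 of the summed Hk1, Hk2 and Hk3 level in KO, 36.8% ± 1.86 in WT and 40.7% ± 2.68 in Mixed, and Hk2 made up 59.3% ± 6.03, 40.8% ± 1.58 and 36.6% ± 3.29 (SD, n = 3). The Hk2 level itself was 57 ± 5.63 TPM in KO, 62.7 ± 5.32 in WT and 59.6 ± 7.38 in Mixed, Hk3 was at 16.2 ± 3.16, 56.8 ± 8.62 and 66 ± 2.43 TPM in the same order, and Hk1 at 23 ± 4.13, 34.7 ± 4.32 and 36.9 ± 0.922. Ldhb made up 0.384% ± 0.0585 of lactate dehydrogenase A and B in KO and 2.42% ± 0.399 in WT, so that Ldha was nearly the whole in each group.

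Redox and iron genes had 12 of 47 and 5 of 31 tested genes higher and 9 and 6 lower, in that order. Gpx3, a secreted glutathione peroxidase, was at 104, 96.4 and 111 CPM in KO, 228, 236 and 284 in WT and 304, 269 and 280.3 in Mixed. Taldo1, an enzyme of the pentose phosphate pathway, was at 1461, 1550 and 1449 CPM in KO, 788.5, 776 and 868 in WT and 858, 852 and 873 in Mixed, and the glutathione enzymes Mgst1 and Glrx were 2.21-fold and 1.99-fold higher than in WT. Steap3, an endosomal iron reductase, was 3.26-fold lower than in WT and 3.45-fold lower than in Mixed. Among 61 glycosyltransferases and sulfotransferases (65 listed) 19 were higher and 16 lower, including Fut7, which makes the selectin ligand sialyl Lewis x (2.6-fold lower than in WT and 3.63-fold lower than in Mixed), and Gcnt2, which makes branched I antigen (2.46-fold higher than in WT and 2.15-fold higher than in Mixed). Gene positions for the leading enzymes are Gatm at chromosome 2, 122594467 to 122611303, minus strand and Dpep2 at chromosome 8, 105984944 to 105991759, minus strand.

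**Figure D4:**
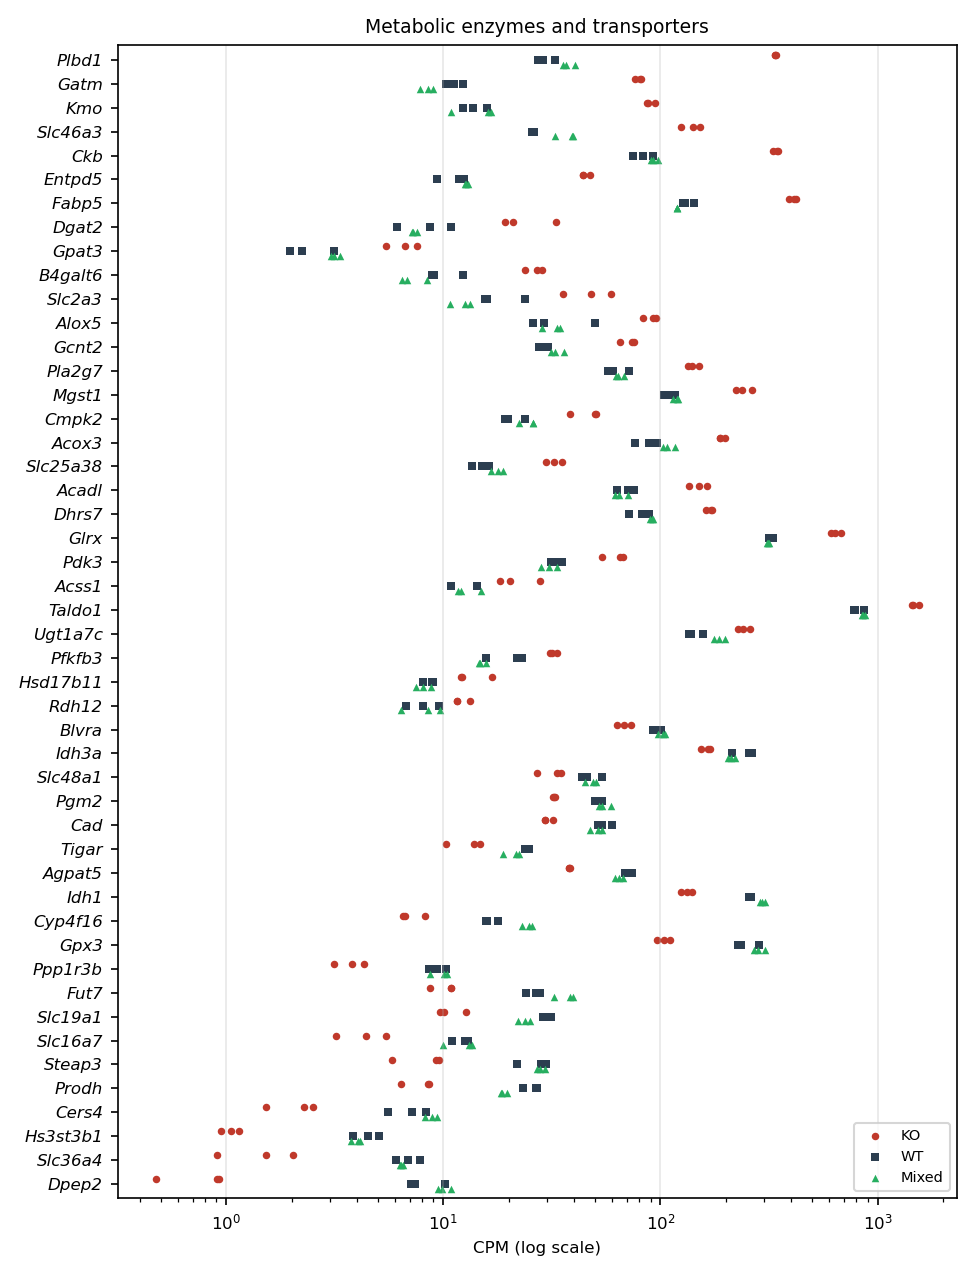
Levels of the named metabolic enzymes and transporters in the 9 fetal liver libraries, in CPM on a log scale, with 1 point per library (KO circles, WT squares, Mixed triangles) and genes ordered by the log2 difference of KO from WT. Plbd1, Gatm and Kmo head the plot, and Dpep2, with KO points below 1 CPM and control points above 7 CPM, is at its foot.

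Outside the lists, the naming rule gave the 12 genes that rose most and the 12 that fell most. Cd74, the chaperone of MHC class II proteins, was at 1949, 1962 and 1961 CPM in KO, 75.1, 75.1 and 99.5 in WT and 60.1, 51.4 and 58.2 in Mixed, and H2-Eb1, a class II chain, was 32.7-fold higher than in WT. Gsn, which encodes the actin-severing protein gelsolin, was at 1121, 1113 and 1159 CPM in KO, 88, 96.4 and 138 in WT and 127, 113 and 122 in Mixed. Rab7b, a GTPase of late endosomes, was at 301, 296 and 306 CPM in KO, 24.4, 22.6 and 24.9 in WT and 25.1, 25.1 and 29 in Mixed, 12.6-fold higher than in WT and 11.4-fold higher than in Mixed (log2 3.65, SE 0.0714, adjusted p = 1.02e-19 against WT). The interferon-induced gene Ifitm1 was at 896 to 977 CPM in KO and 36.6 to 61.6 in the 6 control libraries, and Ly6a, which encodes the stem cell antigen Sca-1 and is also induced by interferon, at 56.8 to 76.2 CPM in KO and 2.55 to 5.9 in the 6 control libraries. Ifitm1 and Ly6a have close copies and are uncertain to that extent.

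Among the genes that fell, Myo7a, an unconventional myosin, was at 15, 10.4 and 14.2 CPM in KO, 79.4, 78.3 and 81.8 in WT and 81.1, 86 and 79.1 in Mixed. Ccl9, a chemokine of myeloid cells, was at 7.96, 8.99 and 8.16 CPM in KO, 45.1, 44.1 and 41.6 in WT and 41.4, 44.6 and 44.7 in Mixed, with KO libraries that differed little from each other (log2 -2.38, SE 0.0725, adjusted p = 1.81e-16 against WT). Cd93, a receptor of progenitor cells and monocytes, was 3.58-fold lower than in WT and 2.77-fold lower than in Mixed. Penk, which encodes the opioid precursor proenkephalin, was 3.42-fold lower than in WT and 4.03-fold lower than in Mixed, and Dram1, a lysosomal protein linked to autophagy, 3.87-fold lower than in WT and 4.01-fold lower than in Mixed.

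Junction and surface genes of epithelia stood among the genes that rose. Lsr, a protein of tricellular tight junctions, was at 48.1, 45.5 and 49.9 CPM in KO, 4.46, 2.68 and 3.52 in WT and 4.3, 3.78 and 5.44 in Mixed, and Spint2, an inhibitor of membrane serine proteases, was at 58.8, 64.9 and 58 CPM in KO, 6.97, 6.92 and 7.7 in WT and 6.59, 7.42 and 7.75 in Mixed. In both genes the 3 KO libraries lay far above all 6 controls, Lsr 13.6-fold higher than in WT and 10.6-fold higher than in Mixed and Spint2 8.4-fold higher than in WT and 8.35-fold higher than in Mixed. After these values had been seen, a list of 62 epithelial junction and adhesion genes was drawn up, so its counts are a description without a test. Of them 32 passed the filter on low counts, 3 through the KO libraries alone, and 30 did not pass. Against both controls 19 were higher and 2 lower, and without the 3 that passed through KO alone 16 of 29 were higher. The median log2 difference of the 32 was 1.4 from WT and 1.5 from Mixed.

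The tight junction gene Cldn1 was at 44.3, 33.6 and 29.3 CPM in KO, 4.13, 6.48 and 5.68 in WT and 7.04, 9.7 and 7.7 in Mixed. F11r, which encodes the junctional adhesion molecule JAM-A, was at 51.5, 54.7 and 66.6 CPM in KO, 17.4, 17.5 and 14.9 in WT and 20.5, 20.9 and 20.2 in Mixed. Marveld2 (tricellulin) was at 9.14 to 10.9 CPM in KO and 0.725 to 2.29 in the 6 control libraries, the desmosomal plakophilin Pkp3 at 12.4 to 15.6 CPM in KO and 2.87 to 5.28 in the 6 control libraries, the protease inhibitor Spint1 at 7.31 to 8.64 CPM in KO and 0.32 to 0.911 in the 6 control libraries, and the keratin Krt8 at 2.82 to 3 CPM in KO and 0.457 to 1.55 in the 6 control libraries. A partner keratin, Krt18, was at 7.18 to 8.32 CPM in KO and 1.4 to 4.32 in the 6 control libraries. Some of these are low levels, but in each of these genes the KO libraries lay above all controls. Cdh1, which encodes E-cadherin, was at 1.32, 0.736 and 2.32 CPM in KO, 0.446, 0.6255 and 0.564 in WT and 0.823, 0.683 and 0.722 in Mixed and was not called (adjusted p = 0.0563 against WT and 0.177 against Mixed). Ctnnd1, the catenin that holds cadherins at the membrane, moved the other way (8.83 to 10.02 CPM in KO and 31.8 to 36.8 in the 6 control libraries), as did Grhl1, an epithelial factor with under 1 CPM in all libraries. Liver parenchyma sums, given above, were highest in KO 3 and WT 3. F11r and Cdh1 were also highest in KO 3, Cldn1 in KO 1 and Spint2 in KO 2, and the part of liver cells in these values was not tested.

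**Figure D5:**
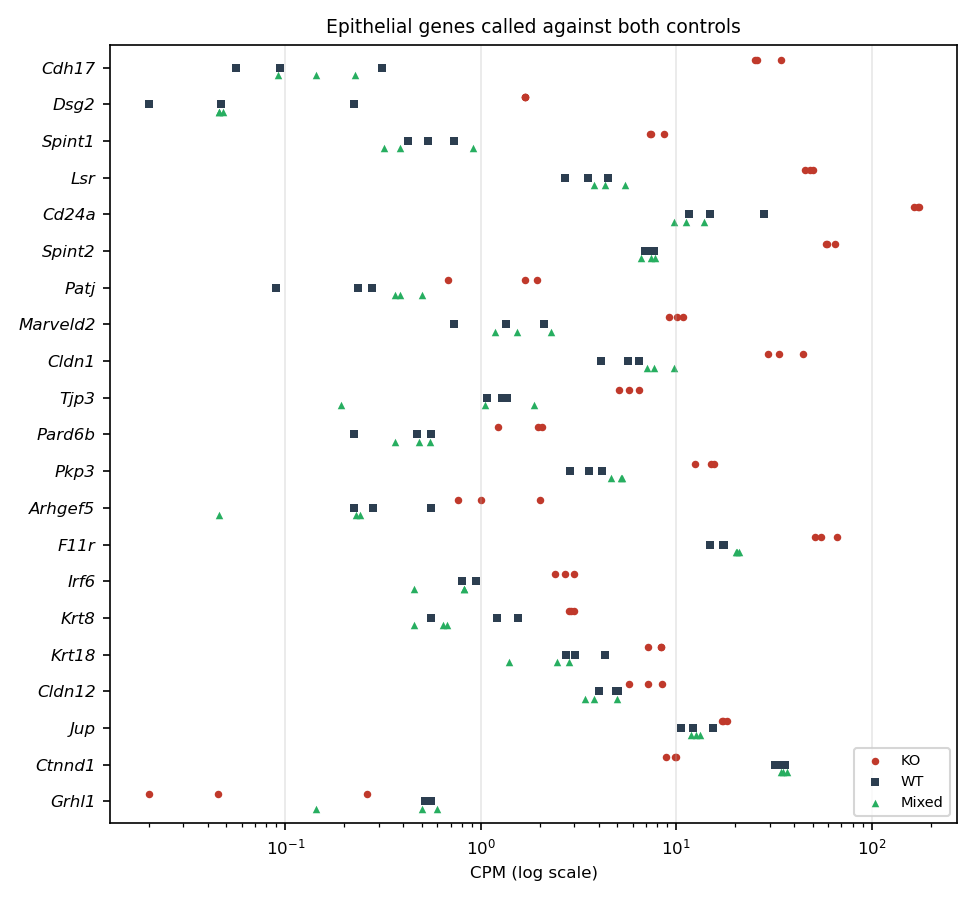
Levels of the 21 epithelial junction and adhesion genes that were called against both controls, in CPM on a log scale, with 1 point per library (KO circles, WT squares, Mixed triangles). The 2 points at 0 (Dsg2 in WT 1 and Grhl1 in KO 3) are drawn at 0.02 CPM. The KO points lie to the right of the control points in 19 genes and to the left in Ctnnd1, while the points of Grhl1, the other lower gene, overlap.

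Promoter letters were read because Zeb proteins are known to bind the E2-box CACCTG. The windows ran from 250 bases before to 50 after each RefSeq transcription start (GRCm38.p6), and 10045 of 14604 tested gene symbols had at least 1 window. Among promoters of genes higher in KO by 2-fold or more against both controls, 209 of 719 held CACCTG on either strand (29.1%). This stands against 17.3% for all tested genes and 20.2% for all promoters of the table. The 719 windows came from 549 genes, and those of all tested genes were 12777. A gene with several starts entered once per window, so these shares count windows and not genes. The share was 13.6% for genes lower by 2-fold or more and 22.0% for all genes higher against both controls.

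CACCTG is 1 of 10 kinds of E-box of the form CANNTG. Every other kind except CACGTG was also more frequent in promoters of genes higher by 2-fold than over tested genes. CAGCTG was held by 21.3% against 14.7%, and CAGATG by 16.6% against 11.8%, while CACGTG, the Myc and Mxd box, was held by 6.4% against 9.97%. The rare CATATG was held by 3.48% (25 promoters) against 1.96%, a ratio of 1.78 beside 1.68 for CACCTG. Any CANNTG was found in 78.7% against 64.4%. GC content was 56.2% in the promoters of the genes higher by 2-fold, 58.5% in those lower by 2-fold and 59.9% over tested genes, so base composition differed between the sets, and its part was not tested. A match is a stretch of letters and not a measured binding site.

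Of the transcription factors named and the genes named from the whole table that rose, 22 had a window that was searched for this, and among these Lsr and Spint2 had the most matches, 4 and 3. Their stretches are shown for that reason, with each CACCTG or its reverse complement CAGGTG in capitals. They read 5′ to 3′ on the minus strand, which is the strand of both genes.
Lsr (chr7:30973470-30973719): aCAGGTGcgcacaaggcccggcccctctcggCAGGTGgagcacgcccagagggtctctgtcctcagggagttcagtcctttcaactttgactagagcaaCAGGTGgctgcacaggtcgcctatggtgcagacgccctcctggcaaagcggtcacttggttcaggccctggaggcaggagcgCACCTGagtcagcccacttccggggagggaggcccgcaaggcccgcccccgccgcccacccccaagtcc
Spint2 (chr7:29281978-29282227): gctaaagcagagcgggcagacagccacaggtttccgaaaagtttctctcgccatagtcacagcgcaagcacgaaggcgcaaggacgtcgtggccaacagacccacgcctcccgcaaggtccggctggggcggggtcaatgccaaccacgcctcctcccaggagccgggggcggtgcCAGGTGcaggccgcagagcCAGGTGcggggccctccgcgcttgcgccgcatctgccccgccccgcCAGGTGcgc
The 4 matches before Lsr began 249, 219, 151 and 69 bases before the start, and the 3 before Spint2 began 74, 55 and 9 bases before it. Of the other genes searched, Nfatc2 held 2 matches and some held 1 (Zbtb46 and Gsn among them). Most held 0, Batf3, Mxd1 and H2-Eb1 among them.

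The interferon-stimulated response element, searched on both strands as 2 copies of GAAA with 2 bases between them, was in 7.37% of promoter windows of the genes higher by 2-fold, 5.85% for all genes higher against both controls, 2.44% for those lower and 3.22% for all tested genes. Of 92 named genes that were higher against both controls and had a promoter analysed here, 6 held it in the 250 bases before the start. The 3 with the largest difference from WT were Jaml, Stat2 and Slamf8, described above. Their stretches, chosen after the values had been seen, follow because they belong to a transcription factor and to surface receptors that rose, with the element (here on the opposite strand) in capitals, 5′ to 3′ on the plus strand for Jaml and Stat2 and on the minus strand for Slamf8.
Jaml (chr9:45078933-45079182): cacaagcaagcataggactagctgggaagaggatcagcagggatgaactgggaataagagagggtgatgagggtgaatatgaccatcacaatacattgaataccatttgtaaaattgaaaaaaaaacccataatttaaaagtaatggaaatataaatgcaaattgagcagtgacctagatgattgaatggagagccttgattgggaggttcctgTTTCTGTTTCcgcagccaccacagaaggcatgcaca
Stat2 (chr10:128270248-128270497): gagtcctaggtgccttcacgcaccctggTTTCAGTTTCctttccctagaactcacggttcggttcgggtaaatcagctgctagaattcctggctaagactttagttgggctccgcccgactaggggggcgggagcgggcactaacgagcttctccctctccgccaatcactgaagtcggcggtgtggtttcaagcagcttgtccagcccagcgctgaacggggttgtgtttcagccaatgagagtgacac
Slamf8 (chr1:172590569-172590818): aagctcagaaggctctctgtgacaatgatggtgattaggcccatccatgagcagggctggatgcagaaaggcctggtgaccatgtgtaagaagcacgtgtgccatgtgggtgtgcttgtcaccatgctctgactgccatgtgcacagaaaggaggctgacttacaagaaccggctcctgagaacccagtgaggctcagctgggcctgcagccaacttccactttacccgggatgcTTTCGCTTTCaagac
The element began 36 bases before the start of Jaml, 222 before that of Stat2 and 15 before that of Slamf8.

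Few genes changed sign between the controls. In 13 genes (0.0889% of those tested) the calls against WT and Mixed had opposite signs. By that definition all 6 that were named lay between the controls. Npm1, a nucleolar histone chaperone, was at 1640, 1619 and 1679 CPM in KO, 2013, 1883 and 1833 in WT and 1316, 1366 and 1359 in Mixed. Xdh, the xanthine oxidase gene, was at 192, 170.2 and 184 CPM in KO, 133, 153 and 154 in WT and 224, 211 and 218 in Mixed. The receptor gene Pira2, which has close copies, and the RNA helicase gene Ddx3x, the engulfment gene Elmo2 and the desaturase gene Scd2 differed from WT by 1.12-fold to 1.21-fold. For these genes KO had no direction against the controls as a whole.

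Called against WT and not against Mixed were 1535 genes (10.5%). Several of those with the largest difference were high in single libraries of both control groups. C1qbp, a mitochondrial protein, was at 32.3, 16 and 18 CPM in KO, 127, 128 and 53.2 in WT and 22.4, 97.7 and 22 in Mixed, high in WT 1, WT 2 and Mixed 2. Iscu, a scaffold for iron-sulphur clusters, was at 21.8, 10.8 and 15.4 CPM in KO, 52.7, 50.9 and 34 in WT and 22.3, 54.8 and 19 in Mixed, and Mtarc2, a mitochondrial reductase gene, was also highest in those 3 libraries. Among 8581 genes with at least 3 log2 CPM on average, 17 had all 3 of these libraries over 1.3-fold above each of the other 6. Of the 17, 12 were called against WT and 1 against both controls. Against WT 1 alone, the control of the same embryonic day, 3745 genes were called. This arm is 1 library, which is assumed to vary like the libraries of the other groups. Of the 198 named genes 185 kept direction and call or its absence, 13 lost the call and 0 changed sign. Among the changed genes given here the fold moved by over 1.5 times in Slamf7 (log2 from 4.52 to 5.78), Nfatc2 (from 2.54 to 1.91), Dusp10 (from 1.65 to 2.26) and H2-Eb1 (from 5.03 to 5.72).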

How the data were processed

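Per the labels' protocols, RNA of sorted monocytes was taken with a NucleoSpin RNA XS kit and amplified with Takara's SMARTer Ultra Low kit. That kit keeps no strand, so genes and their antisense partners cannot be told apart. The tools listed in the submitters' processing notes are Salmon, STAR, featureCounts, Subread and DRAGEN, with build mm10 and no role or order. The authors deposited estimated counts per gene (28.5% of nonzero values not whole, tolerance 1e-06) and TPM values per gene. Counts were rounded, and 287 repeated entries of 55774 were removed. TPM served only for the makeup of families.

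From the counts, edgeR 4.0.16 (R 4.3.3) was fitted once, to all 12 libraries in their 4 groups: filterByExpr (minimum count 10, minimum total 15) kept 14618 genes, with TMM scaling, robust quasi-likelihood tests, two-sided, and Benjamini-Hochberg adjustment over all genes at 0.05. SE is the size of the log2 difference divided by the square root of F. Of the tested genes, 434 passed the filter through KO libraries alone, in that fewer than 3 of the other libraries reached its level. The floor of detection is 3 counts per library. On simulated data for KO and WT (13841 genes), 56.7% of 1.5-fold, 77.3% of 2-fold and 92.3% of 4-fold changes were called, and 9 of 13643 unchanged genes. The simulation drew every group from the WT means and changed only 67, 66 and 65 genes in KO by these folds. In the data 38.1% of genes were called against WT, so these rates may not hold for the real comparison. Positions are 1-based, from GENCODE on GRCm38, and promoters from RefSeq on GRCm38.p6.

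Members and lists were chosen with earlier results of these data known. From each list the rule named up to 4 genes changed against both controls with the largest difference from WT and a mean over the fetal libraries of 1 log2 CPM or more, leaving out genes already described. Over all other genes it named 12 per direction, at 3 log2 CPM or more, with KO outside the range of the controls. It also named up to 6 genes with opposite signs and 6 called against WT alone. Some genes that the rule names, and 1 list, are not reported here. Samples followed their titles, and alternatives were other scalings, filters, tests, the replicate block and libraries left out. Lyz2, Ly6c2, Itgam, the eosinophil and endothelial markers and the epithelial genes other than Lsr, Spint2 and Ctnnd1 were named outside the rule, with their values seen.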

Additional observations from a re-analysis of the deposited data

How the results depend on the processing

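Of 185 named genes changed against both controls, 173 kept both calls in every fit without 1 library. The 12 that lost one were Ahr, Clec2d, Csnk1e, Epha2, Epha7, Klra17, Nfil3, Pias2, Rara, Rdh12, Tyk2 and Zfhx3. Without 1 library, 4803 to 5292 genes were called against WT, 4553 to 4968 against Mixed and 3455 to 3821 against both. A test against a 1.5-fold change called 1345, 1357 and 1095 genes, fewer by construction. Without WT 1, WT 2 and Mixed 2, a setting chosen after seeing the data, 3533 genes were called against WT (leaving 1 WT library, assumed to vary like the other groups), 4798 against Mixed and 2863 against both, 8 of 41 lists moved by over 1.5 times, and 24 of 396 named values lost their call. Against the 6 controls pooled, Npm1 (0.015), Pira2 (-0.117), Scd2 (-0.026) and Xdh (0) had log2 differences of the other sign or near 0. Scaling by library size alone gave 32.5% higher among calls against WT (47.7% with TMM), 33.7% against Mixed (49.5%) and 33.5% against both (50.2%), and 9 of 396 named values lost their call. Maf, not called against WT, was called with upper-quartile scaling, library size alone, no filter, the 6 compared libraries alone and without KO 1 (adjusted p 0.0442, 0.0183, 0.0341, 0.0476 and 0.00884). DESeq2 called 5480, 5330 and 3974. Without the bone marrow libraries 14112 genes were tested, and 3905 were called against both controls, 2115 higher and 1790 lower. With a replicate block the counts were 5525, 5288 and 3965, and 3 named values lost their call. Deviations of same-numbered libraries from their group means correlated at -0.0353 to 0.0693, and those of other pairs at -0.0656 to 0.0456. For KO with WT the ranges were 0.00928 to 0.0693 and -0.0656 to 0.0371. With 3 libraries per group, such values cannot decide whether equal numbers share a litter or batch. Depth limits genes near the floor of 0.127 to 0.167 CPM, among them Slamf7 and Ptprr in the controls.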
